A study of Homo sapiens with 15 samples.

Results

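The genes that carry a cell from G1 into S phase and copy its DNA were followed in SKOV3ip1, an established human epithelial ovarian cancer cell line, grown with or without folate and with or without antibodies. The list held 43 genes, chosen by name for their place in the G1/S transition and the replication machinery, out of 19775 genes with a probe set on the array. All 43 were found, through 85 probe sets that carried their symbol alone, and each gene was read through the brightest of its probe sets (by mean over 15 arrays).

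Folate carries the one-carbon units used to make thymidylate and purines, so cells short of folate run short of DNA precursors. In late G1, cyclin E binds the kinase CDK2, the E2F transcription factors switch on the replication genes, and CDC6 with CDT1 loads the MCM helicase at origins. In S phase MCM10 and the GINS complex help to activate that helicase, polymerases copy the strands with the clamp PCNA and its RFC loader, and ligase, nucleotide enzymes and histone chaperones complete the new chromatin.

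Expression was measured on Affymetrix U133 Plus 2.0 arrays, whose probe sets lie mostly toward the 3′ end of a transcript. All cultures were the same unmodified line. One culture was kept without folate for 7 days, and the other 4 spent 7 days with folic acid, at 2 to 10 nM if the unit "nm" in the labels is read as nanomolar. Of these 4, the folate culture received no antibody, and the others had 24 hours of an antibody called 003, of the control antibody 004, or of MORAb003. MORAb-003, or farletuzumab, binds folate receptor alpha. Whether 003 and MORAb003 name one reagent is unstated in the labels, so both extracts were kept apart, and sample titles write MTF or 5-MTF where the protocol writes folic acid. Each condition was 1 cell growth and 1 RNA extract, hybridised as 3 aliquots. Every SD and p-value below therefore describes the spread between aliquots, and compares extracts and not treatments; culture and treatment cannot be told apart.

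The deposited values are log2 expression, with array medians of 6.53 to 6.67. Of the epithelial and ovarian markers 10 of 10 lay above the probe set median, with list means of 11.2 to 11.4 over the 5 extracts. The dimmest were MUC16 (6.71, and 6.41 in the MORAb003 extract, below the median) and WFDC2 (7.58). Of the leukocyte list 2 of 5 lay above it, CD3E (6.96) and HBB (8.34), with list means of 6.69 to 6.81, while PTPRC (6.43) and CD14 (6.03) lay below. Of the fibroblast and endothelial list 5 of 7 lay above it, with list means of 7.16 to 7.34. These were COL1A1 (9.10), PECAM1 (8.67), DCN (7.78), VWF (7.25) and CDH5 (6.98), while COL3A1 (5.75) and LUM (5.16) lay below. The markers of the label thus lay above the median, though MUC16 and WFDC2 were dim. Other markers were not all dim, and COL1A1 and PECAM1 were brighter than MUC16 and WFDC2. Replicate 1 of the 004 extract stood apart. Its correlation with the other 004 arrays was at most 0.950, against 0.993 to 0.998 within the other extracts. It was the lowest of the 15 arrays for 36 of the 43 replication genes (83.7%), and for 52.0% of all genes tested. It lay below the mean of the other 004 arrays by a median of -0.76 for these 43 genes and of -0.45 for all genes. Among genes with a mean of log2 10 or more the medians were -0.78 and -0.70. Counts and medians that use the 004 extract are therefore given with and without it. The extracts also differed in the gap between 3′ and 5′ actin probe sets, a sign of RNA or labelling length, which was 2.42 ± 0.13 (log2, SD, n = 3) for MORAb003, 3.24 ± 0.13 for folate, 3.46 ± 0.31 for 004, 4.02 ± 0.10 for 003 and 4.09 ± 0.16 for the folate-free extract. The same gap for GAPDH was 1.21 for MORAb003, 1.97 for folate, 2.05 for 004, 2.37 for the folate-free extract and 2.49 for 003. The part of these gaps in the differences below was not tested.

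Many promoters of replication genes carry E2F sites, and 35 of the 43 genes had a promoter window in the RefSeq table, which gives 300 bases, most of them before the transcription start and the last 50 after it (build GRCh38.p14). These 35 genes had 44 windows, and a gene counted once if any of its windows matched. The letters TTTGGCGC, TTTCGCGC, TTTCCCGC or TTTGCCGC were searched on either strand. They stood in 21 of the 35 genes (60.0%) and in 690 of the 11416 tested genes with a window (6.04%). Counted by window and not by gene, they stood in 3.31% of all 35114 windows. The letters CCAAT, on either strand, stood in 22 of the 35 genes (62.9%), against 42.3% of the tested genes. By window they stood in 34.6% of all windows. A window could count for both motifs, and a match describes the sequence and is not a measured binding site. The promoters below are those of the first 4 genes with an E2F match in the order of their largest called difference. CCNE2, E2F8 and CDK2, also near the top of that order, had no window and could not be searched. Of the 4 genes, 3 were called higher and CDC25A lower in the MORAb003 extract in at least 1 comparison. Matching letters thus stood near genes that moved in opposite directions. Capitals mark the E2F match, and each is written 5′ to 3′ on the strand of its gene.
CDC6 (chr17:40287629-40287928, plus strand): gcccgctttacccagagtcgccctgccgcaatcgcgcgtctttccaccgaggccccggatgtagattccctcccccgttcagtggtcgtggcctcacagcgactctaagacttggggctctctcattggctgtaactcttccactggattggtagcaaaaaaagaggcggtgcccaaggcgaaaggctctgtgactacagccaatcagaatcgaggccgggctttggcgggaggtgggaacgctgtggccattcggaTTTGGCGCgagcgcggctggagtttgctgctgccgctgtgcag
POLA1 (chrX:24693668-24693967, plus strand): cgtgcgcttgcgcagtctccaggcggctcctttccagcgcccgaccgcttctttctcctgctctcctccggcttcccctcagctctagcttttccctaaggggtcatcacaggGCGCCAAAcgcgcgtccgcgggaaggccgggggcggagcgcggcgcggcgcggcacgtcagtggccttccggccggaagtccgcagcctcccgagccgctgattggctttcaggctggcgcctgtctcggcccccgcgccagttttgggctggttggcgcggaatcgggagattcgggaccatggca
CDC25A (chr3:48188368-48188667, minus strand): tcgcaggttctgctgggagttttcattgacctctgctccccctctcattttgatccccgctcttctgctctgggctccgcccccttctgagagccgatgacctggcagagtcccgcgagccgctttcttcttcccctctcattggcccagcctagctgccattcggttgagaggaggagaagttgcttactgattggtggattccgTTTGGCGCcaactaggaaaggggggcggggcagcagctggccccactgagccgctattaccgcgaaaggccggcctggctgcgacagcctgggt
RFC3 (chr13:33817899-33818198, plus strand): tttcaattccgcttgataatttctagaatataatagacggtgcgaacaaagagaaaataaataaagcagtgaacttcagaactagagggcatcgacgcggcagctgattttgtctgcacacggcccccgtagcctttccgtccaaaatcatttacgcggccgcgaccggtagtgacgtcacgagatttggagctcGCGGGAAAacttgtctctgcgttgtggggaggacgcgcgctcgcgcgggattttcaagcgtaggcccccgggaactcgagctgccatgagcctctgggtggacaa
The CDC6 match began 7 bases after the start, the CDC25A match at position -44, the RFC3 match at -55 and the POLA1 match at -137, all counted from the annotated start.

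All 43 genes passed the filter on dim signals, CLSPN only through the MORAb003 extract, and 41 of them had a mean of log2 8 or more. Levels ran from CLSPN, which encodes the checkpoint mediator claspin and stayed between 6.52 and 6.69 in extract means, to RRM2 at up to 13.4. Across the 5 extracts the means of a gene spanned a median of 0.57 on the log2 scale, from 0.17 for CLSPN to 1.53 for CCNE2, beside a median SD between aliquots of 0.21, or 0.11 when the 004 extract was left out. The call rule asked for a difference of 1.5-fold or more and an adjusted p under 0.05 (limma, Benjamini-Hochberg over the 14369 genes tested). By this rule 19 of the 43 genes were called in at least 1 of 7 comparisons and 24 in none. Without replicate 1 of the 004 extract 15 were called: POLA1, MCM4, GINS1, LIG1 and CHAF1A, whose calls were all against 004, dropped out, and SLBP came in. The MORAb003 extract had the highest mean of the 5 for 31 of the 43 genes (72.1%), against 32.6% of all genes tested and 42.3% of genes as bright as log2 8. It was also 31 without replicate 1 of the 004 extract, against 31.8% and 40.4%, and 30 of 42 without CLSPN. For 19 of 43 genes (44.2%) all 3 MORAb003 arrays lay above the other 12, against 20.4% of all genes and 26.6% of the bright ones, and the count was the same above the 11 others left without 004 replicate 1 (20.7% and 26.8%). The lowest mean was that of the 004 extract for 16 genes, where it was lowest for 29.3% of all genes and 39.3% of the bright ones. The folate-free extract was lowest for 14 genes, against 12.4% and 15.7%. Without replicate 1 of the 004 extract these became 4 genes (9.83% of all and 9.21% of bright genes) and 15 genes (16% and 21.5%), and 003 was lowest for 15 (22.4% and 28.2%).

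**Figure D1:**
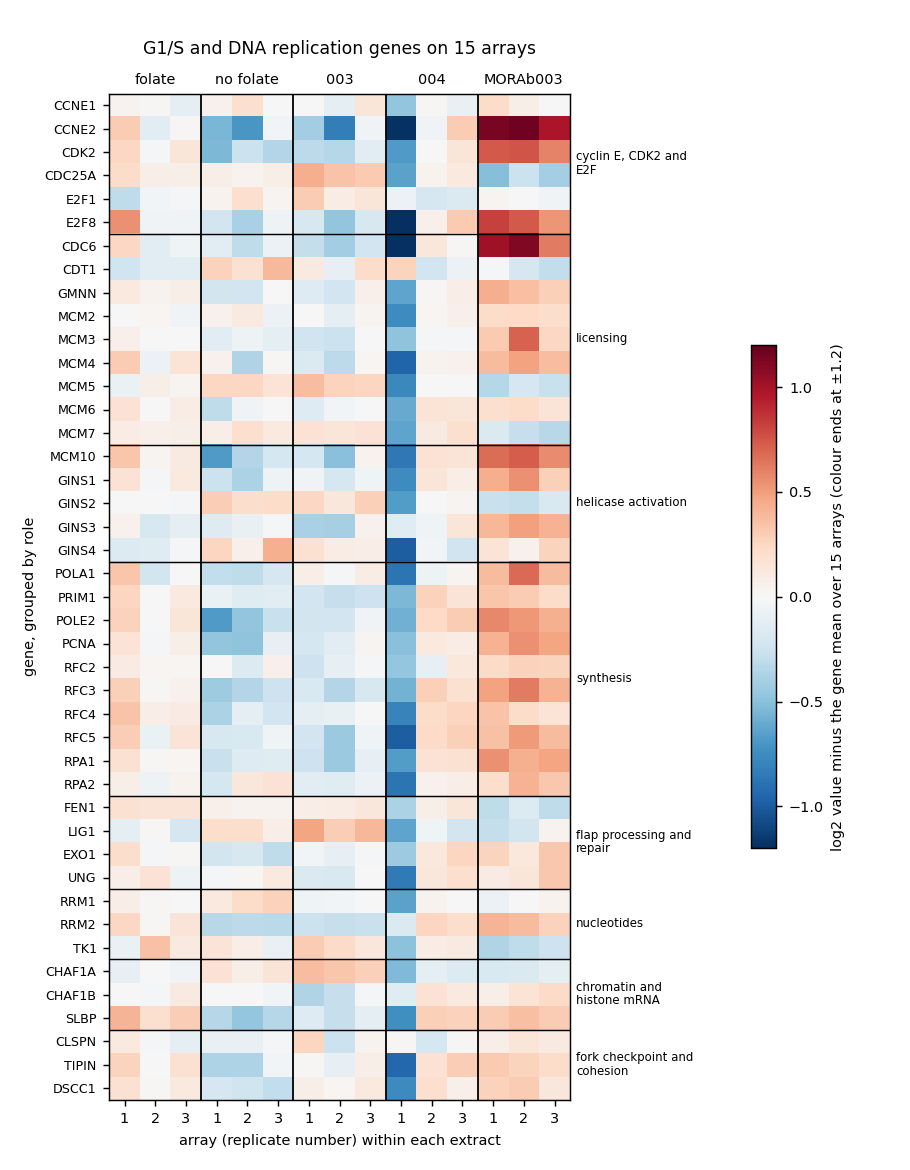
Values of the 43 replication genes (rows, grouped by role) on the 15 arrays (columns, grouped by extract), as log2 value minus the mean of that gene over all arrays. The MORAb003 extract has the highest mean in 31 of 43 rows, and all 3 of its columns are above the other 12 in 19. The first 004 column is the lowest in 36 of 43. The MORAb003 mean is the lowest in 7 rows: CDC25A, CDT1, FEN1, GINS2, MCM5, MCM7 and TK1.

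The comparison of the MORAb003 and 003 extracts gave the most calls: 13 of the 43 genes rose (30.2%) and 1 fell. The background was 17.6% of all genes tested called higher and 7.79% called lower. Among bright genes it was 23.0% and 10.8%, and 12 of the 41 bright replication genes were called higher and 1 lower. More replication genes were called higher, and fewer lower, than the background share on the deposited scale only. The median difference of the 43 genes was 0.37, and that of all genes was -0.09. When all arrays were quantile normalized the split turned: 4 genes were called higher (9.3%) and 7 lower (16.3%), beside a background of 14% and 11.5%. Of these genes 5 were among the original calls. The median of the 43 genes was then 0.19, against -0.12 for all genes. The genes called under both scalings were CCNE2, CDC6, CDK2 and MCM10, higher in MORAb003, and CDC25A, lower. The sign also depended on the probe set: 9 of the 32 other probe sets above the median of all probe sets had the opposite sign to the brightest of their gene. They belong to CCNE1 (-0.27), CDT1 (0.22), DSCC1 (-0.58), E2F1 (0.06), FEN1 (0.74), MCM4 (-0.31), MCM7 (0.49), RFC3 (-0.16) and TK1 (0.02).

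Among the regulators of G1/S, CCNE2, cyclin E2, gave the largest difference of the 43 genes. CCNE2 read 7.79, 7.35 and 7.50 on the folate arrays, 6.94, 6.78 and 7.45 on the folate-free arrays, 7.07, 6.65 and 7.44 on the 003 arrays, 6.30, 7.44 and 7.79 on the 004 arrays and 8.62, 8.65 and 8.47 on the MORAb003 arrays. The MORAb003 arrays lay above all 12 others, and the 004 extract was spread the most. CCNE2 rose in MORAb003 over 003 by 1.53 on the log2 scale (2.88-fold, SE 0.31, limma adjusted p = 0.00163). It also rose over the folate extract, by 1.03 (SE 0.31, limma adjusted p = 0.0467). CCNE2 was the only one of the 43 genes called against folate, which is 2.33% beside a background of 4.77% called higher and 1.81% lower, and it missed the call there under 12 of 15 fits that left out 1 array (kept without any 1 of the 004 arrays) and after quantile normalization (0.90). CCNE1, the other cyclin E, differed by 0.09 between MORAb003 and 003 (SE 0.13) and by -0.08 after quantile normalization, so that its sign depended on the scaling. CCNE1 had means between 10.9 and 11.2 in all extracts.

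CDK2, the kinase that both E cyclins activate, read 9.90, 9.63 and 9.80 on the folate arrays, 9.11, 9.40 and 9.30 on the folate-free arrays, 9.34, 9.31 and 9.53 on the 003 arrays, 8.98, 9.65 and 9.80 on the 004 arrays and 10.39, 10.41 and 10.25 on the MORAb003 arrays. Its MORAb003 arrays lay above the other 12, with the folate arrays next, and the folate-free and 003 arrays lay below those of folate. CDK2 rose in MORAb003 over 003 by 0.96 (SE 0.17, limma adjusted p = 0.000787). E2F8, an atypical E2F that represses transcription, read 8.85, 8.26 and 8.26 on the folate arrays, 8.08, 7.92 and 8.24 on the folate-free arrays, 8.11, 7.83 and 8.11 on the 003 arrays, 6.93, 8.36 and 8.61 on the 004 arrays and 9.12, 9.04 and 8.83 on the MORAb003 arrays. Here 1 MORAb003 array, at 8.83, lay just below the highest folate array, at 8.85, while the 003 arrays were all lower. E2F8 rose over 003 by 0.98 (SE 0.32, limma adjusted p = 0.0238). E2F1, an activating E2F, differed by -0.19 and was not called.

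CDC25A, the phosphatase that removes inhibitory phosphates from CDK2, was the 1 gene that fell. CDC25A read 9.60, 9.45 and 9.45 on the folate arrays, 9.45, 9.42 and 9.45 on the folate-free arrays, 9.82, 9.72 and 9.69 on the 003 arrays, 8.73, 9.42 and 9.49 on the 004 arrays and 8.87, 9.12 and 8.97 on the MORAb003 arrays. The MORAb003 arrays lay below every array but 004 replicate 1, and the 003 arrays were the highest. CDC25A fell by 0.76 on the log2 scale in MORAb003 relative to 003 (SE 0.16, limma adjusted p = 0.00201). The difference was -0.94 after quantile normalization, and its dimmer probe sets gave -0.45 and -0.38.

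**Figure D2:**
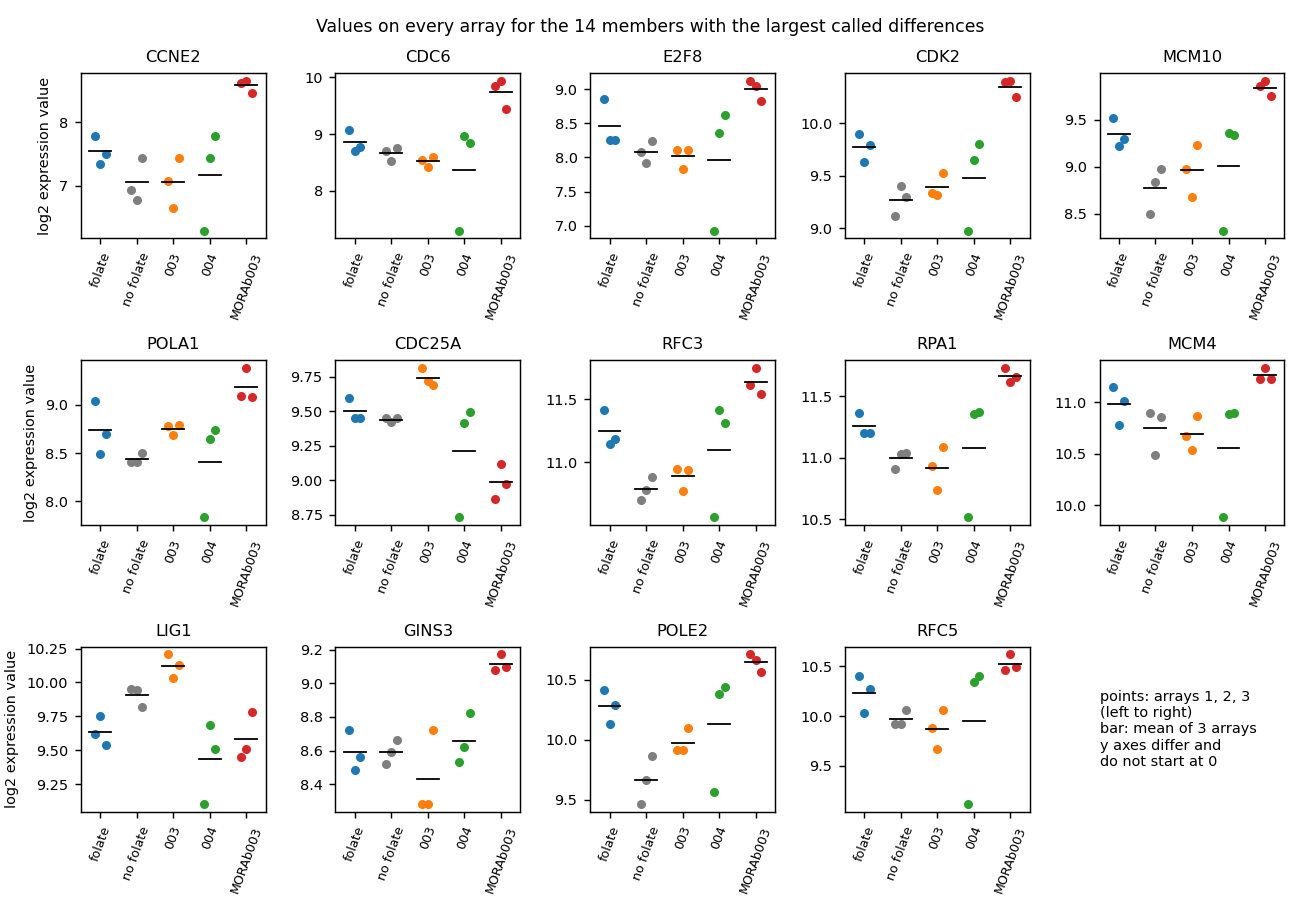
Log2 values on every array for the 14 genes with the largest called differences, with points for the 3 aliquots of each extract, a bar for their mean, and y axes that differ between genes. CCNE2, CDC6 and CDK2 show 3 MORAb003 points above all others, CDC25A shows them below the folate, folate-free and 003 points, and the first 004 point is the low one in nearly every panel.

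Licensing loads the MCM2 to MCM7 helicase onto origins before S phase. CDC6, one of its loaders, read 9.08, 8.70 and 8.78 on the folate arrays, 8.70, 8.53 and 8.76 on the folate-free arrays, 8.54, 8.41 and 8.60 on the 003 arrays, 7.29, 8.96 and 8.84 on the 004 arrays and 9.84, 9.94 and 9.45 on the MORAb003 arrays. The MORAb003 arrays lay above the other 12, and 004 replicate 1 was lower than the rest by more than 1 log2 unit. CDC6 rose in MORAb003 over 003 by 1.23 (2.34-fold, SE 0.32, limma adjusted p = 0.00705). CDT1, the partner of CDC6 in loading, differed by -0.25, and geminin (GMNN), which inhibits CDT1, by 0.47, neither called.

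The 6 helicase subunits, which act as 1 ring, did not share a direction on their brightest probe sets. MCM3 rose in MORAb003 over 003 by 0.59 (SE 0.14, limma adjusted p = 0.00531), barely past 1.5-fold. MCM4 differed by 0.57, and MCM2 and MCM6 by 0.25 and 0.25. MCM5 and MCM7 were lower, at -0.57 and -0.43, under 1.5-fold and so not called, and both were called lower after quantile normalization (-0.77 and -0.59), where MCM3 (0.39) was no longer called. MCM3 and MCM4 had the highest differences and MCM5 the lowest under both scalings. The direction of MCM7 rested on the probe set: the other one, of mean log2 11.1, read 11.59 in MORAb003 and 11.09 in 003, a difference of 0.49. The other probe sets of MCM4 gave 0.10, 0.49, -0.31 and 0.12, and that of MCM5 gave -0.27, so the split between subunits is a description of the brightest probe sets. MCM4 read 11.15, 10.78 and 11.01 on the folate arrays, 10.90, 10.49 and 10.86 on the folate-free arrays, 10.68, 10.54 and 10.87 on the 003 arrays, 9.88, 10.89 and 10.90 on the 004 arrays and 11.23, 11.34 and 11.22 on the MORAb003 arrays. All 3 MORAb003 arrays were highest for MCM4, the nearest other array being a folate array at 11.15.

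The activators of the helicase also differed among themselves. MCM10, which is needed for origins to fire, read 9.52, 9.22 and 9.30 on the folate arrays, 8.50, 8.84 and 8.97 on the folate-free arrays, 8.97, 8.68 and 9.23 on the 003 arrays, 8.32, 9.36 and 9.34 on the 004 arrays and 9.85, 9.91 and 9.75 on the MORAb003 arrays. Its MORAb003 arrays lay above the rest, and the lowest values were those of 004 replicate 1 and a folate-free array. MCM10 rose over 003 by 0.88 (SE 0.23, limma adjusted p = 0.00842). Its other probe sets gave 0.45 and 0.47, under 1.5-fold. GINS3, a subunit of the GINS complex that joins MCM2 to MCM7 at the fork, read 8.72, 8.48 and 8.56 on the folate arrays, 8.52, 8.59 and 8.66 on the folate-free arrays, 8.28, 8.28 and 8.72 on the 003 arrays, 8.53, 8.62 and 8.82 on the 004 arrays and 9.08, 9.17 and 9.10 on the MORAb003 arrays. Its MORAb003 arrays were again above all others, and 004 replicate 1 was not low for GINS3. GINS3 rose by 0.69 over 003 (SE 0.13, limma adjusted p = 0.000903), but by 0.50 after quantile normalization, under 1.5-fold. The other subunits of the same complex differed by 0.53 (GINS1), 0.05 (GINS4, -0.15 after quantile normalization) and -0.47 (GINS2, -0.64 and called lower after quantile normalization).

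In the synthesis group all 10 genes had positive differences between MORAb003 and 003 on their brightest probe sets under both scalings. On the deposited scale 42.5% of all genes tested and 53.7% of bright genes were positive. Of the 10 genes 5 were called, beside 17.6% of all genes and 23.0% of bright genes called higher. The median of the group was 0.56 (0.39 and none called after quantile normalization). POLA1, the catalytic subunit of the priming polymerase alpha, read 9.04, 8.49 and 8.70 on the folate arrays, 8.41, 8.40 and 8.50 on the folate-free arrays, 8.78, 8.69 and 8.79 on the 003 arrays, 7.83, 8.65 and 8.74 on the 004 arrays and 9.09, 9.39 and 9.08 on the MORAb003 arrays. The MORAb003 arrays lay just above the highest folate array, at 9.04. POLA1 differed from 003 by 0.43 and was not called there. POLE2, a subunit of the leading-strand polymerase epsilon, read 10.42, 10.13 and 10.29 on the folate arrays, 9.46, 9.66 and 9.87 on the folate-free arrays, 9.92, 9.91 and 10.10 on the 003 arrays, 9.56, 10.38 and 10.44 on the 004 arrays and 10.71, 10.66 and 10.57 on the MORAb003 arrays. MORAb003 was highest and the folate-free arrays were, with 004 replicate 1, the lowest. POLE2 rose over 003 by 0.67 (SE 0.19, limma adjusted p = 0.0113).

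RFC3 and RFC5 are small subunits of the loader that places PCNA on DNA. RFC3 read 11.42, 11.15 and 11.18 on the folate arrays, 10.70, 10.78 and 10.88 on the folate-free arrays, 10.95, 10.78 and 10.94 on the 003 arrays, 10.56, 11.42 and 11.31 on the 004 arrays and 11.61, 11.75 and 11.54 on the MORAb003 arrays. Its MORAb003 arrays lay above the others, and the folate-free and 003 arrays below those of folate. RFC3 rose over 003 by 0.75 (SE 0.18, limma adjusted p = 0.00417). A dimmer RFC3 probe set showed the same order on a wider scale, with means of 6.51 in the folate-free extract, 6.97 in 003, 7.84 in 004, 8.42 in folate and 9.23 in MORAb003. This order was the reverse of that of the actin gap between the 3′ and 5′ probe sets. The part of that gap in the RFC3 values was not tested. The dimmest RFC3 probe set, of mean 7.22, did not follow: 003 was highest at 7.41, and MORAb003 minus 003 was -0.16. RFC5 read 10.40, 10.03 and 10.27 on the folate arrays, 9.92, 9.92 and 10.06 on the folate-free arrays, 9.88, 9.67 and 10.06 on the 003 arrays, 9.12, 10.34 and 10.40 on the 004 arrays and 10.46, 10.62 and 10.49 on the MORAb003 arrays. The MORAb003 arrays were highest by a small margin over a folate array and a 004 array, both at 10.40. RFC5 rose over 003 by 0.65 (SE 0.25, limma adjusted p = 0.0488), and kept the call in 3 of 15 fits that left out 1 array. The loader subunits RFC2 and RFC4 differed by 0.38 and 0.31, and the clamp PCNA rose by 0.59 (SE 0.16, limma adjusted p = 0.00859), at the edge of 1.5-fold.

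RPA1, the large subunit of the protein that covers single-stranded DNA, read 11.36, 11.20 and 11.20 on the folate arrays, 10.91, 11.03 and 11.04 on the folate-free arrays, 10.93, 10.74 and 11.09 on the 003 arrays, 10.52, 11.35 and 11.37 on the 004 arrays and 11.73, 11.61 and 11.65 on the MORAb003 arrays. Its MORAb003 arrays were highest, and the 003 and folate-free arrays were the lowest apart from 004 replicate 1. RPA1 rose over 003 by 0.75 (SE 0.18, limma adjusted p = 0.00497). RPA2, a smaller subunit of that protein, differed by 0.44, and PRIM1, the catalytic subunit of primase, by 0.54, neither called.

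Among genes that finish the new strand and package it, differences had both signs. LIG1, which joins Okazaki fragments, read 9.62, 9.75 and 9.54 on the folate arrays, 9.95, 9.95 and 9.82 on the folate-free arrays, 10.21, 10.03 and 10.13 on the 003 arrays, 9.10, 9.69 and 9.51 on the 004 arrays and 9.45, 9.51 and 9.78 on the MORAb003 arrays. The 003 arrays were the highest, the folate-free arrays came next, and the folate and MORAb003 arrays overlapped. LIG1 differed by -0.54 between MORAb003 and 003, FEN1, the flap endonuclease that acts before it, by -0.36, and TK1, which phosphorylates thymidine, by -0.53, none reaching 1.5-fold. RRM2, the small subunit of ribonucleotide reductase, rose by 0.62 (SE 0.11, limma adjusted p = 0.000835), while RRM1, the large subunit of the same enzyme, differed by 0.02 (-0.16 after quantile normalization). A dimmer RRM1 probe set read 9.14 in MORAb003 and 7.78 in 003, a difference of 1.36, and the other RRM2 probe set gave 0.68, so the order of the subunits rested on the probe set. The second probe sets of FEN1, of mean 9.72, and of TK1 gave 0.74 and 0.02, opposite in sign to the brightest. CHAF1A and CHAF1B, partners in the CAF-1 histone chaperone, differed by -0.48 and 0.37. After quantile normalization LIG1 (-0.73), TK1 (-0.71) and CHAF1A (-0.66) were called lower, and RRM2 (0.51) was not called. The exonuclease EXO1 (0.29), the uracil-DNA glycosylase UNG (0.31), the histone mRNA binding protein SLBP (0.50), CLSPN (0.10), the fork protection factor TIPIN (0.27) and the cohesion factor DSCC1 (0.17, -0.01 after quantile normalization) were not called.

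**Figure D3:**
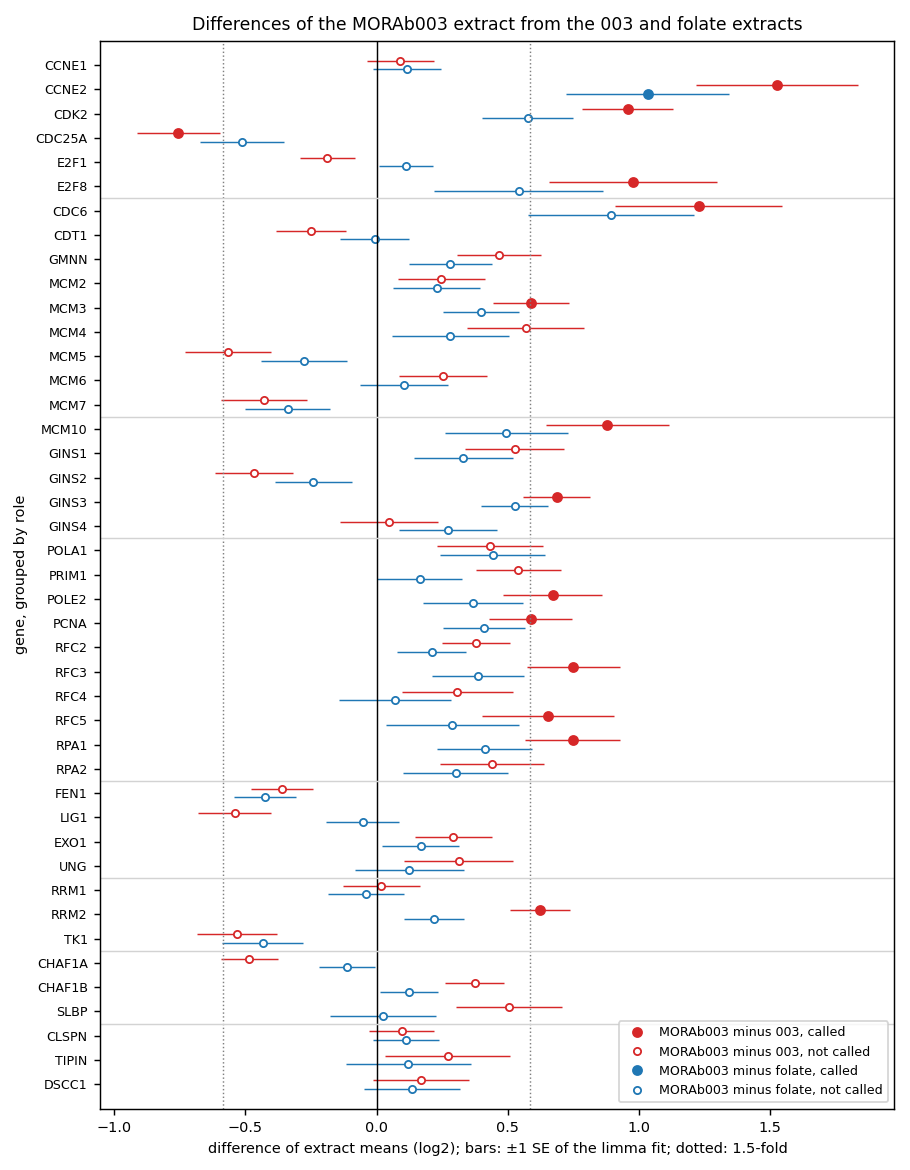
Difference of extract means (log2) of the 43 genes, MORAb003 minus 003 in red and MORAb003 minus folate in blue, each gene read through its brightest probe set, with bars of ±1 SE of the limma fit, filled points for called genes and dotted lines at 1.5-fold. The synthesis genes all lie to the right of 0 in red, while CDC25A, MCM5, MCM7, GINS2, LIG1, TK1 and CHAF1A lie to the left.

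Without the fold minimum, 18 genes passed the adjusted p higher and 8 lower in MORAb003 against 003, beside 22.2% and 22.5% of all genes. Of the 14 calls, 9 genes had another probe set above the median, and 13 of their 14 other probe sets had the same sign, the exception being that of RFC3. CDC6 and CCNE2 were called in all 25 fits run for this comparison, and CDK2, CDC25A, MCM10, GINS3, RFC3, RPA1 and RRM2 in 24. Within the first date in the array labels (2 arrays per extract) the median difference of the 43 genes was 0.42, and within the second (1 array per extract) it was 0.25. For CCNE2 these were 1.78 and 1.02, for CDC6 1.42 and 0.85, and for CDC25A -0.77 and -0.72.

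Against the control antibody 004, 10 of the 43 genes rose in MORAb003 (23.3%) and none fell, where 17.6% of all genes were called higher and 2.32% lower, and 22.7% higher among bright genes. The share of replication genes called higher was therefore near that of bright genes. The genes were CCNE2 (1.40), CDC6 (1.38), E2F8 (1.03), CDK2 (0.87), MCM10 (0.83), POLA1 (0.78), MCM4 (0.70), GINS1 (0.60), MCM3 (0.60) and RPA1 (0.59), with limma adjusted p from 0.00287 to 0.0259. Without replicate 1 of the 004 extract 3 remained called, CCNE2 (0.96, limma adjusted p = 0.00145), CDC6 (0.84, 0.000144) and CDK2 (0.62, 0.000232), beside 9.95% of all genes called higher. Leaving out MORAb003 replicate 2 also left 3 genes called, beside 13.1% of all genes, and leaving out 004 replicate 2 or replicate 3 gave 18 and 19, beside 23.1% and 24%. The median difference of the 43 genes was 0.40 with that array and 0.15 without it, against 0.04 and -0.05 for all genes. After quantile normalization CCNE2 (1.30), CDC6 (1.22) and E2F8 (0.90) were called, beside a background of 11.8% higher and 6.6% lower. The median of all genes was then -0.10 in place of 0.04, and that of the 43 genes 0.10 in place of 0.40.

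**Figure D4:**
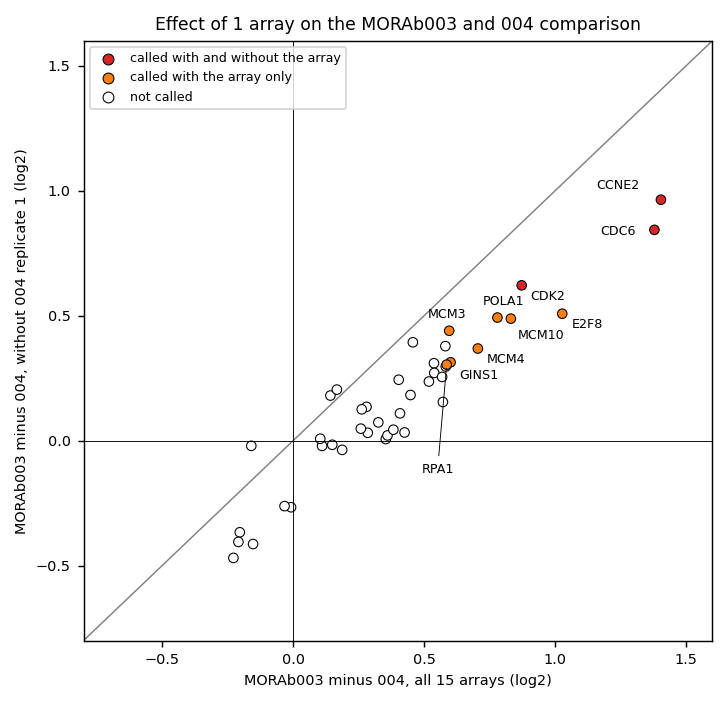
Difference between the MORAb003 and 004 extracts (log2) for the 43 genes, with all 15 arrays on the x axis and without 004 replicate 1 on the y axis. Most points lie below the diagonal line of equal values, and CCNE2, CDC6 and CDK2 (red) are the 3 genes called both ways.

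Against the folate extract, the MORAb003 differences of the 43 genes had a median of 0.17, beside -0.04 for all genes (0.08 and -0.07 after quantile normalization), and apart from CCNE2 no gene was called. At an unadjusted limma p under 0.05 there were 12 of the 43 (27.9%) and 3936 of all genes (27.4%). CDC6 differed by 0.89 (limma adjusted p = 0.0853) and became a call without replicate 1 of the 004 extract (limma adjusted p = 2.9e-05), when 8.36% of all genes were called higher. CDK2 differed by 0.58, GINS3 by 0.53 and CDC25A by -0.51. After quantile normalization CDC25A (-0.61) was the only gene called, with 2.96% of all genes called lower.

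Growth for 7 days without folate gave 0 calls among the 43 genes in limma, each read through its brightest probe set. Of all genes, 0.905% were called higher and 1.8% lower. At an unadjusted limma p under 0.05 there were 8 of the 43 genes (18.6%) and 2684 of all genes (18.7%), so the shares were alike. The median difference of the folate-free from the folate extract was -0.19, against 0.01 for all genes, and -0.09 against 0.01 after quantile normalization. SLBP, which binds the stem-loop of histone mRNA, had means of 10.60 ± 0.07 without folate and 11.29 ± 0.11 with it (SD, n = 3). Its difference was -0.68 and was not called (limma adjusted p = 0.0741). POLE2 had means of 9.66 ± 0.20 and 10.28 ± 0.14, a difference of -0.61, also not called (limma adjusted p = 0.086). RRM2 passed the adjusted p (0.0367 in limma) at a difference of -0.47, short of 1.5-fold. The others at an unadjusted p under 0.05 were MCM10 (-0.57), CDK2 (-0.50), RFC3 (-0.46) and PCNA (-0.42) below folate, and CDT1 (0.45) above it. The other MCM10 probe sets gave -0.20 and 0.12, so the sign for MCM10 rested on the probe set. CCNE2 differed by -0.49 with a larger error (SE 0.31) and did not reach that p. Some dimmer probe sets, not tested singly, differed more: RFC3 (-1.915), RPA1 (-0.90) and RFC5 (-0.79) lower, CDC25A (1.17) and CDT1 (0.82) higher. The brightest CDC25A probe set gave -0.06. Of the 32 other probe sets above the median of all probe sets, 26 had the sign of the brightest of their gene. With the mean of all probe sets CDT1 was called higher, at 0.64 (limma adjusted p = 0.0103). The 004 arrays bear on this comparison through the shared variance and the filter, which left 14146 genes in place of 14369 without 004 replicate 1. Once replicate 1 of the 004 extract was left out SLBP and POLE2 were called lower (limma adjusted p = 7.8e-06 and 0.000212), 4.65% of the 43 genes beside 5.16% of all genes.

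The 003 antibody gave 0 calls among the 43 genes against folate in limma, each read through its brightest probe set. Of all genes, 0.431% were called higher and 1.59% lower. An unadjusted limma p under 0.05 was reached by 8 of the 43 (18.6%) and 3080 of all genes (21.4%). The median was -0.16, against 0.03 for all genes, and -0.06 against 0.04 after quantile normalization. CCNE2 (-0.49), SLBP (-0.48), E2F8 (-0.44) and RRM2 (-0.40) were the lowest and LIG1 (0.49) and CHAF1A (0.37) the highest of these differences. Some dimmer probe sets, not tested singly, differed more, with RFC3 (-1.45) and RPA1 (-0.83) lower and CHAF1A (0.65) higher. Of the 32 other probe sets above the median of all probe sets, 25 had the sign of the brightest of their gene. Against 004, LIG1 (0.69, limma adjusted p = 0.0169) and CHAF1A (0.60, limma adjusted p = 0.0123) rose in 003, 4.65% of the 43 genes beside 3.07% of all genes called higher. Neither was called without replicate 1 of the 004 extract, when they differed by 0.52 and 0.46, nor after quantile normalization. The median of the 43 genes went from 0.07 to -0.20 without that array, and that of all genes from 0.07 to 0.01. Without that array 0.806% of all genes were called higher. The count of the 43 was also 0 without 003 replicate 1 or replicate 2 (0.0765% and 0.439% of all genes) and 1 without 003 replicate 3 (0.533%). It was 5 and 4 without 004 replicate 2 and replicate 3 (6.64% and 7.61%). Between the 2 controls, 004 and folate, limma called 0 of the 43 genes and 0 of all 14369. An unadjusted limma p under 0.05 was reached by 0 of the 43 and by 1276 of all genes (8.88%). The median there was -0.22 for the 43 genes and -0.13 for all, and 0.02 and 0.01 without replicate 1.

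**Figure D5:**
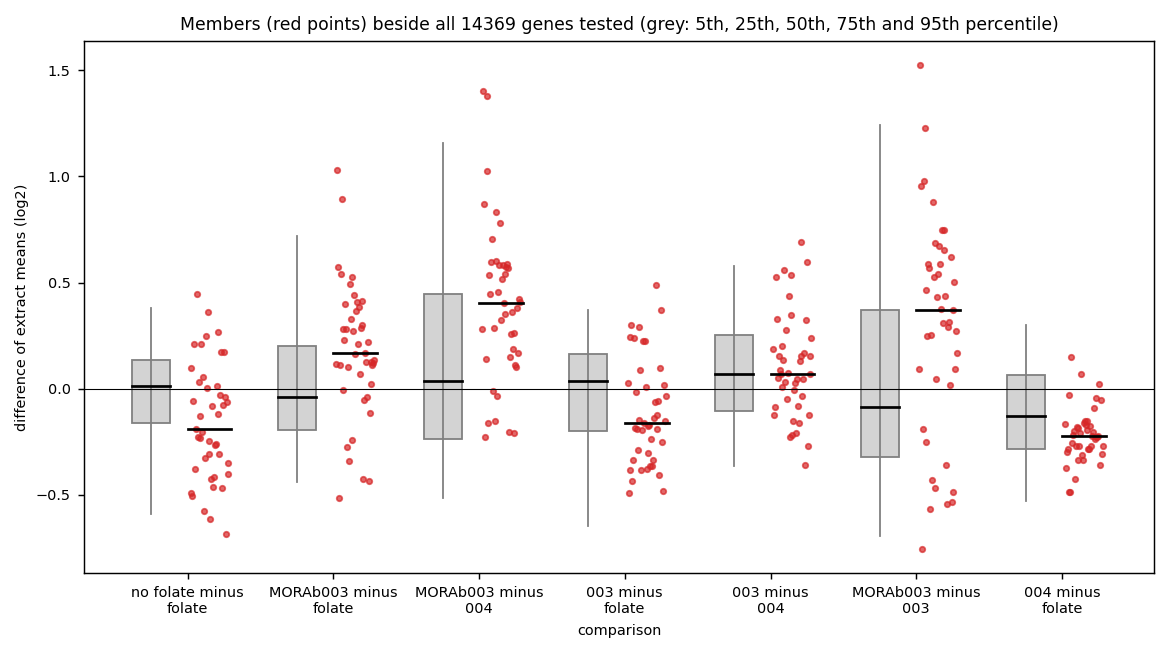
Differences of the 43 genes (red points, with a black bar at their median) in the 7 comparisons, beside the 5th to 95th percentile of all 14369 genes tested (grey line, with a box from the 25th to the 75th and a bar at the median). The median of the 43 genes is above that of all genes in the 3 comparisons that start from MORAb003 and below it for the folate-free and 003 extracts against folate.

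A further list held 67 other genes of the same pathway, of which 64 were tested. In MORAb003 against 003, 24 rose (37.5%) and 3 fell (4.69%), beside 17.6% and 7.79% of all genes, with a median of 0.29 beside -0.09 for all genes. After quantile normalization 18 were higher (28.1%) and 5 lower (7.81%), beside 14% and 11.5%. They included DCK, which salvages deoxynucleosides (1.96), the histone chaperone ASF1A (1.52), the damage-responsive reductase subunit RRM2B (1.52) and RBL2, the pocket protein p130 that acts with repressive E2Fs (1.49). Against 004, 26 rose (40.6%) and none fell, beside 17.6% and 2.32% of all genes. Without replicate 1 of the 004 extract 13 were higher (20.3%) and 2 lower (3.12%), beside 9.95% and 2.4%. Against folate, 4 rose (6.25%) and 1 fell (1.56%), beside 4.77% and 1.81% of all genes: RBL2 by 0.93, PRIM2, the large primase subunit, by 0.87, CCND2, cyclin D2, by 0.82, and WEE1, the kinase that inhibits CDK1 and CDK2, by 0.60, all higher, while FBXW7, which targets cyclin E for degradation, was lower at -0.75 (limma adjusted p from 0.0192 to 0.0466). After quantile normalization PRIM2 (0.78) and WEE1 (0.51) were no longer called against folate, and RBL2, CCND2 and FBXW7 were. Without folate, TFDP1, the dimer partner of the E2Fs, was the 1 gene called (1.56%, beside 1.8% of all genes called lower), at -0.74 (limma adjusted p = 0.00372). In 003 against folate it was ASF1A (1.56%, beside 1.59%), at -1.21 (limma adjusted p = 0.0491). Without replicate 1 of the 004 extract the calls of this list were 11 higher (17.2%, beside 8.36% of all genes) and 1 lower (1.56%, beside 1.99%) for MORAb003 against folate. They were 7 lower (10.9%) for the folate-free extract and 7 lower for 003, both against folate, beside 5.16% and 6.55% of all genes. In 003 against 004, POLD1, the catalytic subunit of polymerase delta, rose by 0.63 and the helicase RECQL4 by 0.59 (3.12%, beside 3.07% of all genes), and neither was called without replicate 1 of the 004 extract, when 6 genes of the list were called lower (9.38%, beside 5.54% of all genes).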

How the data were processed

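The values are log2 expression per probe set, as deposited by the authors for 15 arrays; how they were summarised and normalized is not given in the sources used here, and they were used without further scaling. RNA was extracted with Trizol, per the labels' protocols. Of 54675 probe sets, 62 controls were left out, 41091 had 1 symbol, 1801 several and 11721 none. For 41037 of those with 1 symbol the gene ID was found in RefSeq, and the RefSeq symbol was used. A gene was tested if 1 extract mean reached log2 6.60, the median of all probe sets, which left 14369 genes. Group means of the 5 extracts were fitted with limma 3.58.1 in R 4.3.3 (lmFit, eBayes, 10 residual degrees of freedom), with Benjamini-Hochberg adjustment over all genes of a comparison. Comparisons share extracts and are not independent of each other. The genes, lists and tests were chosen with earlier results of these data known. Values on every array are given for called genes, in order of their largest called difference, up to 14; up to 4 called genes of the other pathway list are named per comparison by size, and WEE1 was added after its value was seen. On simulated data for MORAb003 against folate, with 14369 genes, the fit recovered 71 of 100 changes of 1.8-fold and 99 of 100 of 3-fold, with 5 false calls. The simulated noise was independent between genes, with the spread between aliquots. These figures therefore leave out array-wide differences and differences between cultures. Alternatives changed the scaling, the filter, the probe set, the fold minimum, blocks and the arrays used; the date blocks follow the array labels, with replicates 1 and 2 on the first date.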

Additional observations from a re-analysis of the deposited data

How the results depend on the processing

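Counts of the 43 genes called are given here. After quantile normalization they were 1 (folate-free against folate), 3 (MORAb003 against 004) and 0 (003 against 004), and the median of the 43 genes in MORAb003 against 004 was 0.10. With the mean of all probe sets they were 1 (folate-free against folate) and 1 (003 against 004). With only the 6 arrays compared they were 2 (folate-free against folate), 2 (MORAb003 against folate), 0 (MORAb003 against 004) and 0 (003 against 004). With the first label date only they were 0 (MORAb003 against folate) and 0 (003 against 004), and with no filter 0 (MORAb003 against folate). With no fold minimum they were 1 (folate-free), 4 (MORAb003 against folate), 19 (MORAb003 against 004) and 26 (MORAb003 against 003), and at 2-fold 3 (MORAb003 against 004), 0 (003 against 004) and 2 (MORAb003 against 003). Leaving out each array in turn gave 0 to 2 (folate-free), 0 to 2 (MORAb003 against folate), 3 to 19 (MORAb003 against 004), 0 to 5 (003 against 004) and 11 to 15 (MORAb003 against 003), and 0 throughout for 003 and for 004 against folate. The median of 003 against 004 ran from -0.20, reversed without 004 replicate 1, to 0.23 when 1 array was left out. No called gene changed sign under any alternative run, though 111 single results fell short of the call in one. The causes were not tested. Replicate numbers did not pair the arrays: 8 of 30 same-number pairs correlated over 0.1 (from -0.55 to 0.52), and 5 of 15 arrays correlated best with their own number. With the replicate block 13 genes were called for MORAb003 against 003, and the other counts were as without it. One culture per condition limits every comparison, and dim genes are near the background signal.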
